A study of Mus musculus with 4 samples.

Results

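The Notch genes examined here are 4 receptors (Notch1, Notch2, Notch3 and Notch4), 3 ligands (Jag1, Jag2 and Dll1), the receptor-modifying enzyme Lfng and the target genes Hes1 and Hey1. They were taken by gene symbol, and all 10 had a probe set, out of 12394 genes with a named probe set on the array. Together they had 17 of the 22690 probe sets: 7 genes had 2 each and Dll1, Hes1 and Hey1 had 1 each.

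The study measured mammary RNA of C57BL/6 females that had never been pregnant and were either Sca-1 knockout or wild-type littermates, on 4 Affymetrix arrays, to ask how loss of Sca-1, a surface antigen by which stem and progenitor cells are often recognised, bears on gland and tumor. The groups were wild-type mammary gland, Sca-1 KO mammary gland (both at 6 weeks of age), wild-type mammary tumor and Sca-1 KO mammary tumor. To induce tumors, mice got 15 mg of MP (a long-acting progestin) by injection under the skin, followed by 4 weekly gavages of 1 mg of the carcinogen DMBA in cottonseed oil. One treatment protocol is attached to all samples, but only the tumors' own labels name MP-DMBA. Each array carried RNA pooled from 5 mice, all kept on standard chow. There were no replicates, so no test was possible, no p-value or error is given, and each difference reported is one between single arrays. The labels give no age for the tumor-bearing mice, and tissue, age and treatment cannot be told apart in tumor against gland. How the knockout was made is not given in the labels, and the loss of Sca-1 itself was not checked here.

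Signals are linear, in arbitrary units, and the trimmed mean of every array was 500, a sign of scaling before deposit. Differences are on the log2(signal + 27.3) scale, where 27.3 is the lower quartile of all values, and folds come from that scale, which understates differences of dim genes. A gene is represented by its brighter probe set. It was compared where at least 1 of its 4 signals reached the median of all values, 168.1, called the floor below. All 10 genes passed, as did 8283 of the 12394. Jag1 passed through the tumor arrays alone and Lfng through the gland arrays alone, so for these 2 some difference was bound to appear, while 7 of the 10 reached the floor on every array. The other is Notch4, which fell just short of it in the Sca-1 KO tumor. "Higher" and "lower" as counts mean at least 2-fold.

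The arrays differed in ways that touch all these genes. Median signals were 166.5 and 199 in the wild-type and Sca-1 KO gland and 151 and 153 in the tumors. Lower quartiles were 34.6, 44.2, 18.5 and 17.9 in the same order, so dim probe sets read highest on the Sca-1 KO gland array. For the beta-actin controls, the signal near the 3' end over that near the 5' end was 2.35 in wild-type gland and between 1.23 and 1.61 on the other arrays. The part of this in the results was not tested. Skeletal muscle markers (8 of 8 above the floor) summed to 50269 and 48590 in the glands and 270 and 747 in the tumors. Adipocyte markers (6 measured of 8) summed to 43177 and 40572 in the glands and 5114 and 3807 in the tumors. The glands were therefore whole tissue rich in fat and muscle RNA, and whether this mixture bears on the Notch genes was not tested. In bulk RNA, fewer cells of a type and less RNA per cell cannot be told apart. Luminal epithelial markers, which define the labelled tissue, were present on all arrays. Of 12, 10 were above the floor everywhere, among them Krt8 and Epcam, while the steroid receptors Esr1 and Pgr were below it on every array.

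Notch receptors are transmembrane proteins that are activated by ligands of the Jagged and Delta-like families on neighbouring cells. Ligand binding lets ADAM proteases and then gamma-secretase cut the receptor, and the freed intracellular domain enters the nucleus, where it joins the DNA-binding protein RBPJ and Mastermind proteins to switch on target genes, typically repressors of the HES and HEY families. Fringe enzymes such as Lfng add sugars to the receptor and so change which ligands activate it. In the mammary gland the pathway is known for its part in luminal cell fate, and its overactivity can drive mammary tumors in mice.

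Both tumors lay apart from both glands for 8 of the 10 genes, 4 above (37.8% of all genes) and 4 below (41.4%). At least 2-fold differences were found for 5 of the 10 in wild type (29.4% of all genes) and 3 in knockout (30.2%). Hey1, Jag1, Hes1 and Notch1 were higher in both tumors than in both glands, from 5.89-fold for Hey1 down to 1.81-fold for Notch1 in wild type. For Jag1 and Notch1 this held for the brighter probe set and not for the second. Lfng, Notch3, Notch2 and Notch4 were lower in both tumors than in both glands. Dll1 and Jag2 had overlapping signals. Sca-1 KO and wild type differed by less than 2-fold for all 10 genes in both tissues. At least 2-fold genotype differences were found in 1.36% of all genes in the gland and 4.07% in the tumor.

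Notch1, a receptor of many epithelia and of lymphocytes, had signals of 873 in wild-type gland, 766.5 in Sca-1 KO gland, 1606 in wild-type tumor and 1527 in Sca-1 KO tumor. Both tumors lay above both glands, by 1.81-fold in wild type and 1.96-fold in knockout. The second, dimmer probe set of Notch1 did not show this, with 151.9, 218.1, 195.6 and 200.0 in the same order and differences of 0.31 and -0.11 (log2). The brighter probe set alone therefore carries the difference.

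The other 3 receptors were lower in the tumors. Notch2, a close relative of Notch1 that is also known from B cells, had 874 and 989 in the wild-type and Sca-1 KO gland and 476 and 569 in the tumors. That is 1.79-fold lower in the wild-type and 1.70-fold lower in the Sca-1 KO tumor, with no overlap. Its second probe set stayed below the floor on every array, between 4.6 and 57.7.

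Notch3, known above all from the mural cells of blood vessels, had the same direction in both of its probe sets. The brighter one read 1487 and 1416 in the wild-type and Sca-1 KO gland and 676 and 720 in the tumors. The other read 329.5 and 459.3 in the glands and 173.5 and 193.6 in the tumors. In neither probe set did the tissues overlap. By the brighter one Notch3 was 2.15-fold lower in the wild-type and 1.93-fold lower in the Sca-1 KO tumor, on either side of the threshold. By the dimmer one the differences were -0.83 and -1.14 (log2), so the genotype in which it passed 2-fold changed with the probe set. Markers of pericytes and smooth muscle, the cells in which Notch3 is best known, did not move together. Of 9 above the floor, 5 were below the gland levels in both tumors, namely Pdgfrb, Rgs5, Cspg4, Des and Mcam. The 4 above were Acta2, Myh11, Tagln and Cnn1. The part of these markers in the Notch3 difference was not tested. The pericyte-associated Pdgfrb differed by -0.65 and -0.89 and the smooth muscle protein Tagln by 1.08 and 1.08 in wild type and knockout.

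Notch4, a receptor of endothelium, had 325.9 and 324.4 in the wild-type and Sca-1 KO gland and 188.6 and 166.4 in the tumors. It was 1.64-fold lower in the wild-type and 1.82-fold lower in the Sca-1 KO tumor. The second probe set was below the floor throughout, at 42.4 and 50.7 in the glands and 13.4 and 10.6 in the tumors, in the same direction. Endothelial markers were lower in the tumors as well. All 12 markers had both tumors below both glands, against 41.4% of all genes. Tek, Tie1 and Robo4 reached the floor on the gland arrays alone, so a lower tumor value was built into their passing. The summed signals of the 12 markers were 7221 and 8194 in the glands and 3411 and 2657 in the tumors. Their median differences were -0.98 in wild type and -1.60 in knockout. Notch4, at -0.71 and -0.86, was lower in the tumors by less than these medians, and the part of the markers in its difference was not tested.

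**Figure D1:**
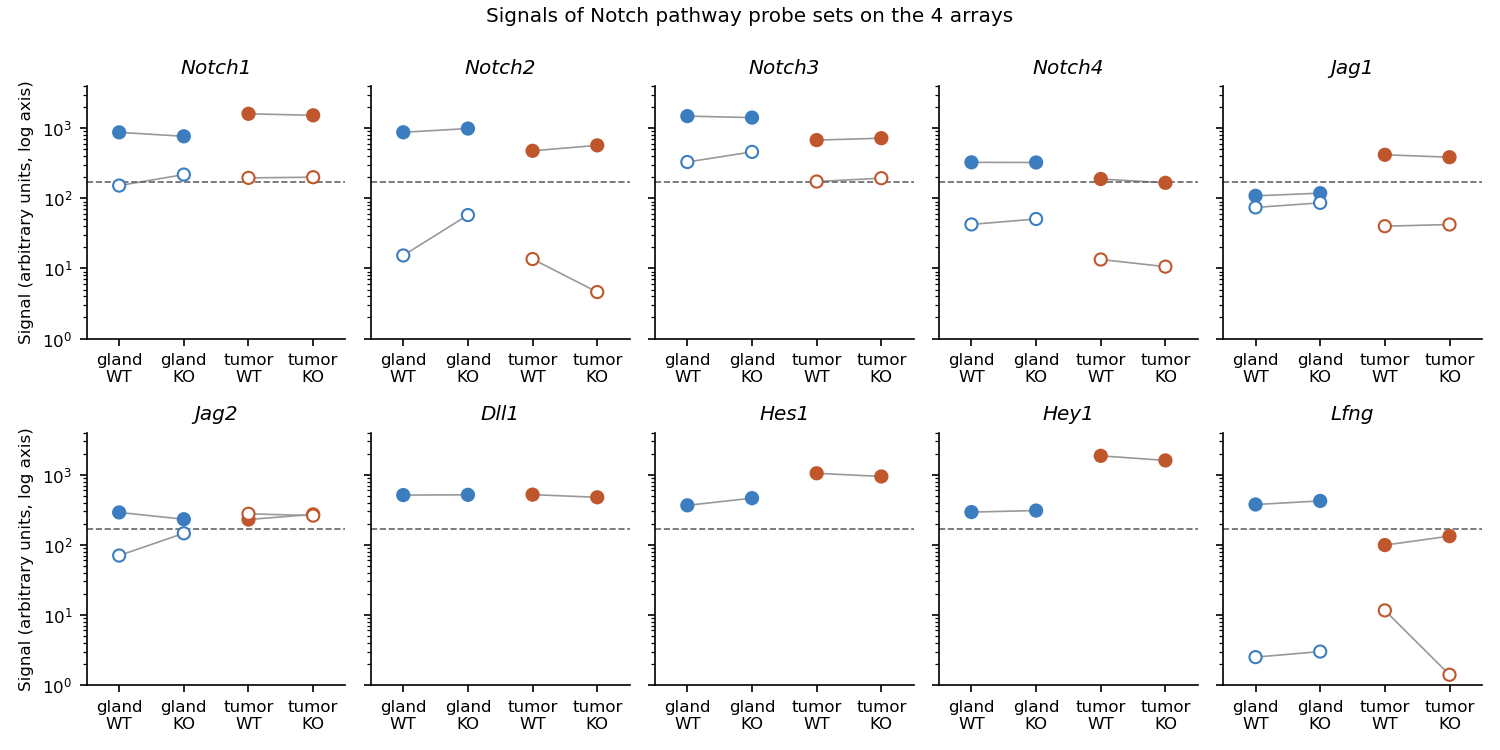
Signal (arbitrary units, log axis) of every probe set of the 10 Notch genes on the 4 arrays, 1 point per array, with glands in blue and tumors in orange. Filled points are the brighter probe set of a gene, open points the other one, and the dashed line is the floor of 168.1. By the filled points, Hey1, Hes1 and Jag1 stand higher in both tumors and Lfng lower. Grey lines between wild type and knockout of 1 tissue are close to level for these points.

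Among the ligands the 3 genes differed from each other. Jag1, a Jagged ligand expressed by basal and other epithelial cells, had 108.5 and 118.4 in the wild-type and Sca-1 KO gland and 418 and 386 in the tumors. The gland signals were below the floor and the tumor signals above it. The difference was 3.28-fold in wild type and 2.84-fold in knockout. The second probe set of Jag1 went the other way, with 74.1 and 86.1 in the glands and 40.0 and 42.3 in the tumors, all below the floor. Only the brighter probe set thus gives a level above the floor, and the pair disagree in sign.

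Jag2, the other Jagged ligand, gave no settled direction. Its brighter probe set read 289.7 and 231.7 in the wild-type and Sca-1 KO gland and 229.4 and 271.9 in the tumors, which overlap. The second read 70.3 and 145.9 in the glands and 276.8 and 261.2 in the tumors, which do not, and it was 3.12-fold higher in the wild-type and 1.67-fold higher in the Sca-1 KO tumor. The gland signals of the second probe set were below the floor.

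Dll1, a Delta-like ligand, was the most even of the 10. Its signals were 512.2 and 516.5 in the wild-type and Sca-1 KO gland and 519.8 and 476.1 in the tumors, so the tissues overlapped. The log2 differences were 0.02 in wild type and -0.11 in knockout, of which the second turned positive when arrays were brought to a common median or quantile normalized.

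Lfng, a Fringe glycosyltransferase and itself a Notch target in some tissues, was the member with the largest decrease. Its signals were 375.9 and 422.7 in the wild-type and Sca-1 KO gland and 99.1 and 132.9 in the tumors. Both tumor signals were below the floor, and the difference was 3.19-fold in wild type and 2.81-fold in knockout. The second probe set was near background, between 1.4 and 11.6.

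Of the target genes, Hey1 had the largest increase among the members. Hes1 rose less in both genotypes than Jag1 did by its brighter probe set. Hey1, a HEY-family repressor and direct Notch target, had 292.9 and 308.1 in the wild-type and Sca-1 KO gland and 1859 and 1599 in the tumors. This was 5.89-fold in wild type and 4.85-fold in knockout. Of the 8283 genes above the floor, 2.03% were further up than Hey1 in wild type and 2.52% in knockout. Hes1, a HES-family repressor, had 365.7 and 462.9 in the glands and 1048 and 943 in the tumors. Its difference was 2.74-fold in wild type and 1.98-fold in knockout, just under the threshold, and it passed 2-fold in knockout under 4 of 9 alternative settings. Genes further up than Hes1 made up 7.39% in wild type and 12.6% in knockout. Each of these target genes had 1 probe set, so no second reading was at hand.

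The counts are given beside those over all genes. In wild type 3 of the 10 genes were higher (Jag1, Hes1 and Hey1), against 12.9% of all genes, and 2 were lower (Notch3 and Lfng), against 16.6%, which makes 5 either way against 29.4%. In knockout 2 were higher (Jag1 and Hey1), against 12.4%, and 1 was lower (Lfng), against 17.9%, which makes 3 either way against 30.2%. With all 4 arrays at a common median, which moved the median of all genes from -0.04 to 0.34 in knockout, these all-gene counts were 1753 higher and 1013 lower in place of 1023 and 1479, and 4 members were higher (Notch1, Hes1, Jag1 and Hey1) and 1 lower. In wild type the all-gene counts were 1302 and 1150 in place of 1065 and 1374, and the median moved from -0.03 to 0.12. There 4 members were higher and 1 lower in place of 3 and 2. Notch1 just reached 2-fold (1.0003) and Notch3 fell short of it (-0.97).

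Past 2-fold in both genotypes were Jag1 and Hey1 in the higher direction, against 9.2% of all genes, and Lfng in the lower, against 13.4%. Both tumors lay above both glands for 4 of the 10 genes and for 37.8% of all genes, and below for 4 of the 10 and for 41.4%. The median size of the difference was 0.98 over the 10 genes and 0.59 over all genes in wild type, and 0.96 and 0.61 in knockout. The genes went both ways, and their signed medians were -0.14 and 0.05, beside -0.03 and -0.04 for all genes.

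The wild-type and knockout comparisons of tumor with gland share no array, so each gives its own reading of the tissue difference. Over the 10 genes the pair of differences had a Pearson r of 0.98 and a Spearman rho of 0.98, and over all 8283 genes 0.88 and 0.88. These points are genes on the same arrays and not independent replicates. The sign was the same for 8 of the 10 genes, all but Jag2 and Dll1, and for 7032 of the 8283.

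**Figure D2:**
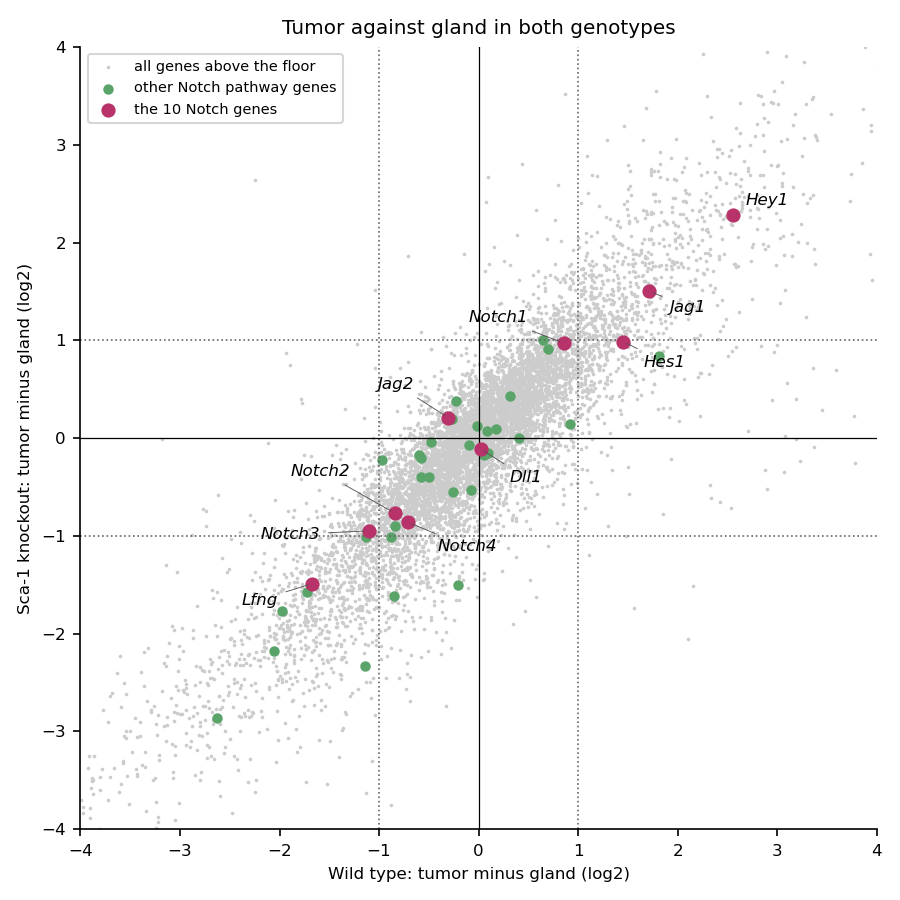
Difference between tumor and gland (log2) in wild type (horizontal axis) and in Sca-1 knockout (vertical axis), 1 point per gene, for all genes above the floor (grey), other Notch pathway genes (green) and the 10 Notch genes (magenta). Dotted lines mark 2-fold, and genes beyond 4 in size are outside the axes. Hey1 lies at 2.56 and 2.28 and Lfng at -1.67 and -1.49, and the other members lie between them along the diagonal.

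The comparison of genotypes asks whether loss of Sca-1 went with other levels of these genes. In the gland none of the 10 was at least 2-fold higher in Sca-1 KO, against 1.11% of all genes, and none was lower, against 0.254% (1.36% either way). Differences ran from -0.29 for Jag2 to 0.32 for Hes1 (log2). Their median size was 0.13, beside 0.18 for all genes. Hes1 read 365.7 in wild type and 462.9 in knockout, 1.25-fold higher. Notch4 and Dll1 were nearly level, at -0.01 and 0.01. All 7 second probe sets read higher in the Sca-1 KO gland, from 0.02 for Lfng to 1.00 for Notch2 (15.3 and 57.7, 1.995-fold). For Notch1, Notch3, Notch4 and Jag2 the second probe set went against the sign of the brighter one, which for Notch4 was nearly level. Of the 7 second probe sets, 5 had both gland readings below the floor, where the Sca-1 KO gland array read highest. Of the 10 gland differences 8 changed sign under at least 1 alternative setting, and none reached 2-fold under any. Notch4 and Hes1 kept theirs, Hes1 with a range of 0.08 to 0.34.

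In the tumors, too, none of the 10 was at least 2-fold higher in Sca-1 KO, against 2.12% of all genes, and none was lower, against 1.94% (4.07% either way). Differences ran from -0.21 for Hey1 to 0.34 for Lfng. The median size was 0.15, beside 0.20 for all genes. Lfng, with 99.1 and 132.9, was 1.27-fold higher, but both signals were below the floor. Notch2 was 1.18-fold higher and Hey1 1.16-fold lower in the Sca-1 KO tumor. Other genes did differ between these tumors. Markers of keratinising epithelium, in which Notch1 and Jag1 are known to act, summed to 7860 in the wild-type and 1522 in the Sca-1 KO tumor (9 of 12 above the floor, 7 of them lower, median -3.05). Krt1, Krt6b, Lor, Flg, Sprr1b and Krtdap were bright enough to pass in the wild-type tumor only. For these a lower value in the Sca-1 KO tumor was built in, as was part of the median. Krt10 and Krt6a, above the floor in both tumors, read 2447 and 1387 in wild type and 272 and 942 in knockout. Beside the keratinising markers, Notch1 differed by -0.07, Jag1 by -0.11 and Hes1 by -0.15. With 1 array a group, differences of this size cannot be set apart from variation between pools or arrays.

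The sign of the genotype difference was the same in gland and tumor for 4 of the 10 genes (Notch1, Notch2, Notch4 and Lfng), and for 50.8% of all genes. The difference of the 2 tissue differences reached 4-fold for none of the 10, against 1.05% of all genes. By the brighter probe sets the extremes were Jag2 at 0.51 and Hes1 at -0.47. The second Jag2 probe set, above the floor in the tumors alone, gave -0.90. The second Notch2 probe set, below the floor throughout, gave -1.36.

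**Figure D3:**
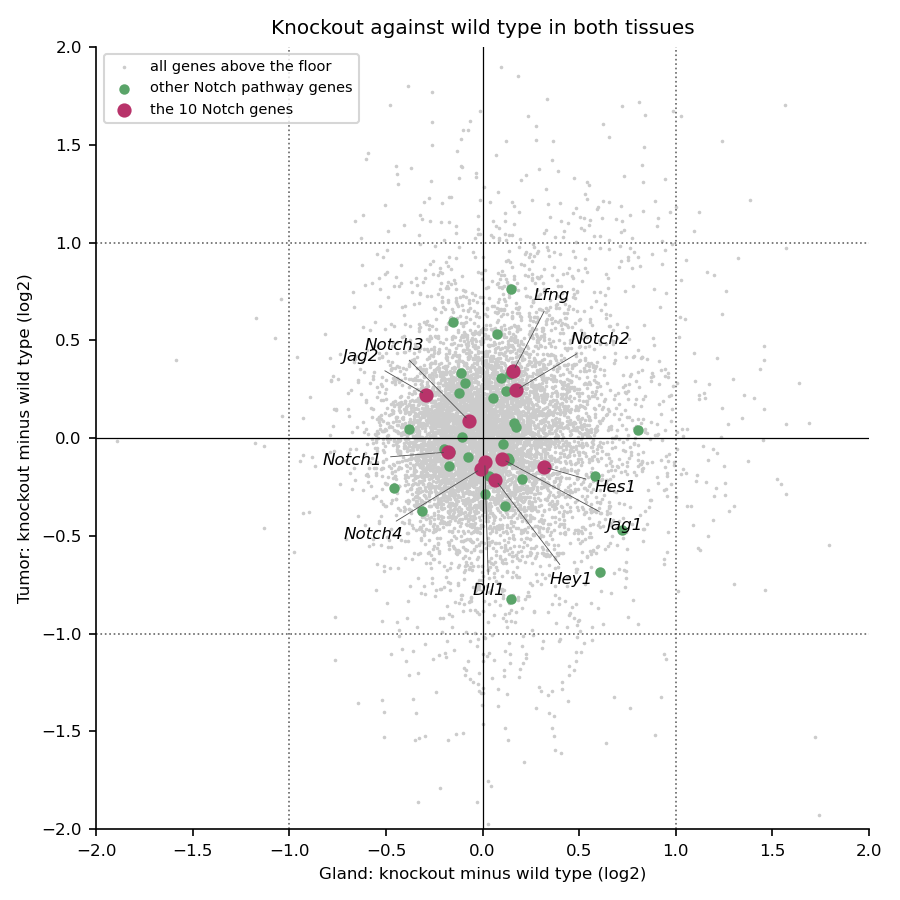
Difference between Sca-1 knockout and wild type (log2) in gland (horizontal axis) and in tumor (vertical axis), 1 point per gene, colours as in the plot of tumor against gland. Dotted lines mark 2-fold, and genes beyond 2 in size are outside the axes. All 10 Notch genes lie near the centre, between -0.29 and 0.32 in the gland and between -0.21 and 0.34 in the tumor.

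The rest of the pathway was read from a list of 64 genes by role, of which 58 were measured and 42 were above the floor. Leaving out the 10 genes above, 32 of 54 were above it. In wild type 1 of the 32 was higher in the tumor (Nrarp), against 12.9% of all genes, and 6 were lower, against 16.6%. In knockout 1 was higher (Hes6), against 12.4%, and 9 were lower, against 17.9%. For genotype none of the 32 differed 2-fold in gland or tumor, against 1.36% and 4.07% of all genes. The median over the 32 was -0.26 in wild type and -0.19 in knockout for tumor against gland, 0.08 in the gland and -0.04 in the tumor.

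Of the HES and HEY genes other than Hes1 and Hey1, Hes6 alone was above the floor. The target gene Nrarp was above it too, and both had tumor signals above both glands. Nrarp, a target that dampens the pathway in turn, had 388.6 and 433.4 in the wild-type and Sca-1 KO gland and 1432 and 797 in the tumors. It was 3.51-fold higher in the wild-type and 1.79-fold higher in the Sca-1 KO tumor. Between the tumors it was 1.77-fold lower in knockout, the largest genotype difference among the 42 pathway genes in the tumor. Hes6, a HES relative that counteracts Hes1, had 273.3 and 249.4 in the glands and 444.9 and 527.5 in the tumors. Hey2 and Heyl, the remaining HEY genes, were below the floor on every array. Hey2 read 30.6 and 19.0 in the glands and 136.4 and 97.1 in the tumors. Heyl read 118.5 and 159.6 in the glands and 63.0 and 38.9 in the tumors, and no direction is read from either gene.

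The lower genes had several roles, among them receptor modification, cleavage, transcription and ubiquitin ligation. Mfng, Ncstn and Numbl reached the floor through the gland arrays alone, so a lower tumor value was built into their passing. Neurl1a, Dtx1 and Spen, the last from the transcription group, reached it through the Sca-1 KO gland alone. For these a lower tumor value in knockout was built in. Mfng, a second Fringe enzyme, had 821.8 and 903.5 in the glands and 110.2 and 100.7 in the tumors, and was 6.18-fold and 7.27-fold lower in wild type and knockout. Lfng, too, was above the floor in the glands alone, and Rfng, above it on all 4 arrays, was within 2-fold at -0.25 and -0.55. Lymphocyte markers, on the other hand, were also lower in the tumors, with 10 of 10 above the floor below both glands and summed signals of 2614 and 5850 in the glands and 652 and 665 in the tumors. All of them but Cd3d reached the floor on gland arrays alone, so a tumor value below a gland value was built into their passing. The part of the lymphocyte markers in the Mfng difference was not tested.

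Ncstn, a subunit of gamma-secretase, was 4.17-fold and 4.52-fold lower in the tumors, with 374.1 and 426.0 in the glands and 69.0 and 73.0 in the tumors. The other measured subunits did not follow: Psenen differed by -0.10 and -0.07, Psen2 by -0.07 and -0.53 and Aph1a by 0.70 and 0.91. The sheddases Adam10 and Adam17 were within 2-fold, at -0.57 and -0.21 and at 0.32 and 0.43.

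Rbpj, the DNA-binding partner of the cleaved receptor, was named here after its values were seen. It had 647.3 and 706.8 in the glands and 280.8 and 336.6 in the tumors, 2.19-fold and 2.02-fold lower, and its other probe set above the floor had the same sign. Of the remaining lower genes, Dtx3, a Deltex ubiquitin ligase, was 3.93-fold and 3.42-fold lower. Neurl1a, a ubiquitin ligase that acts on ligands, was 3.31-fold and 2.98-fold lower, with tumor signals of 30.2 and 39.0. Numbl, a relative of the Notch inhibitor Numb, was 2.20-fold and 5.02-fold lower, and Numb itself differed by 0.06 and -0.17. Dll4, a ligand of endothelium, was below the floor on every array, with 72.2 and 107.8 in the glands and 57.9 and 31.6 in the tumors.

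**Figure D4:**
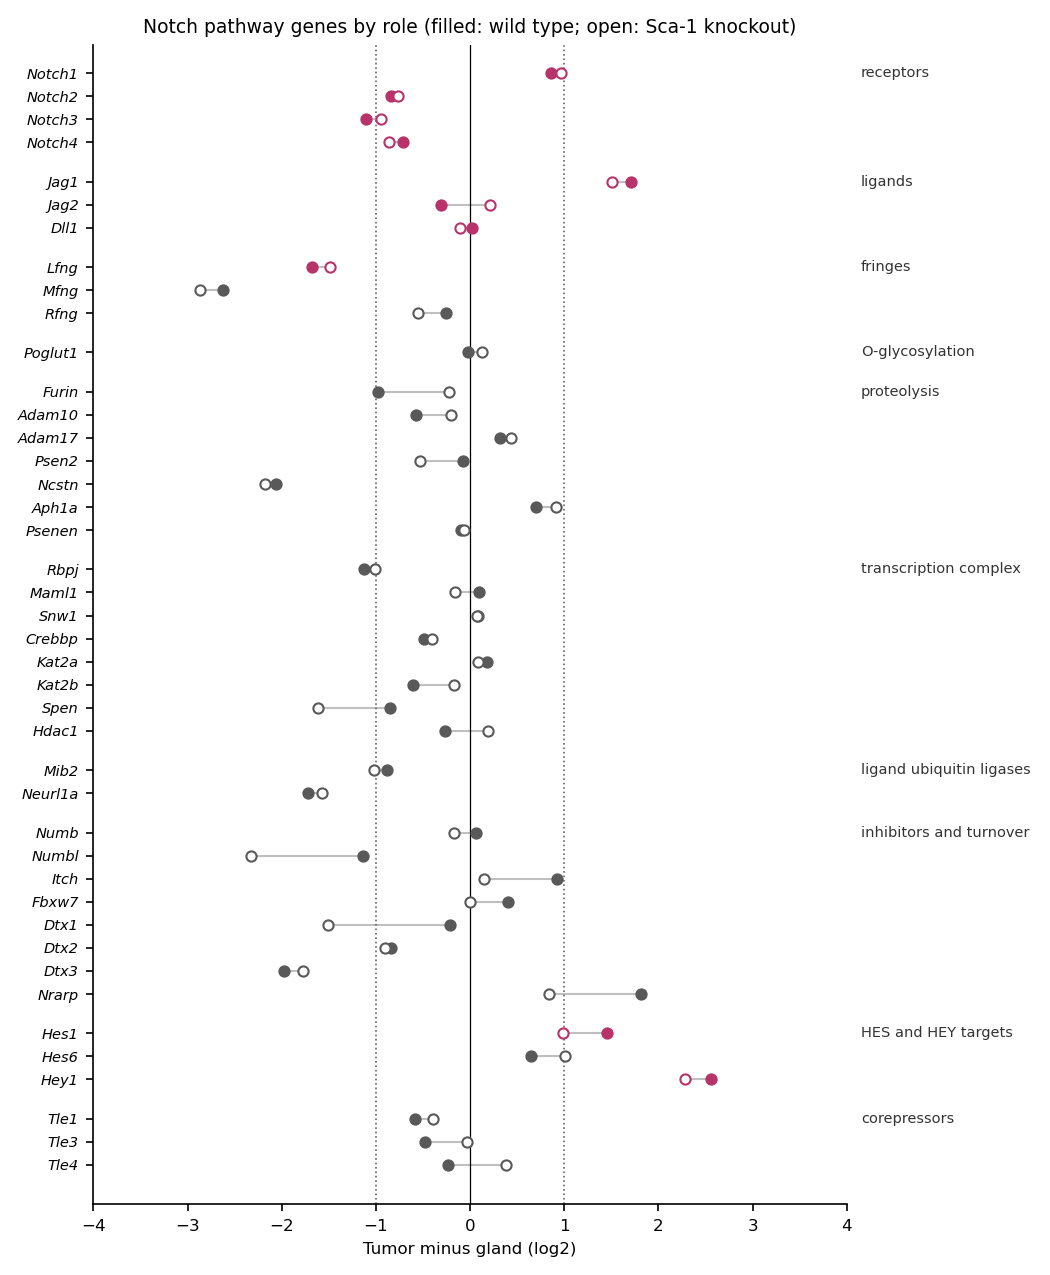
Difference between tumor and gland (log2, horizontal axis) for the 42 Notch pathway genes above the floor, grouped by role, with wild type filled and Sca-1 knockout open. Magenta points are the 10 Notch genes and dotted lines mark 2-fold. Hey1, Hes1, Jag1 and Nrarp stand to the right, and Mfng, Ncstn, Lfng, Dtx3 and Neurl1a to the left in both genotypes.

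Cell type markers moved between gland and tumor as well, and their medians are given beside the Notch genes. Luminal epithelial markers had median differences of 0.77 in wild type and 1.23 in knockout, with 10 of 10 above both glands in both tumors. Their summed signals were 29814 and 24358 in the glands and 48131 and 53256 in the tumors. Basal and myoepithelial markers had 1.88 and 2.27, with sums of 6174 and 7224 in the glands and 22398 and 23589 in the tumors. Of these 8 markers, 6 had both tumors above both glands, 1 (Oxtr) had both below and 1 (Itga6) overlapped. Hey1, at 2.56 and 2.28, lay above the basal median in wild type and at it in knockout. Jag1, at 1.71 and 1.504, lay between the luminal and basal medians in both genotypes, and Hes1, at 1.45 and 0.99, did so in wild type alone. Markers of dividing cells had 1.75 and 2.04. Fibroblast markers had -0.29 and -1.07, pericyte and smooth muscle markers -0.43 and -0.33, and macrophage markers 1.38 and 0.22. Lymphocyte markers had -1.34 and -2.88, adipocyte markers -4.36 and -4.43, skeletal muscle markers -7.08 and -6.36, and keratinising epithelium 3.37 and -0.09. Most lymphocyte and skeletal muscle markers passed the floor through gland arrays alone, and most keratinising ones through the wild-type tumor alone. Part of their medians was therefore bound to appear. The part of these marker shifts in the differences of the Notch genes was not tested.

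**Figure D5:**
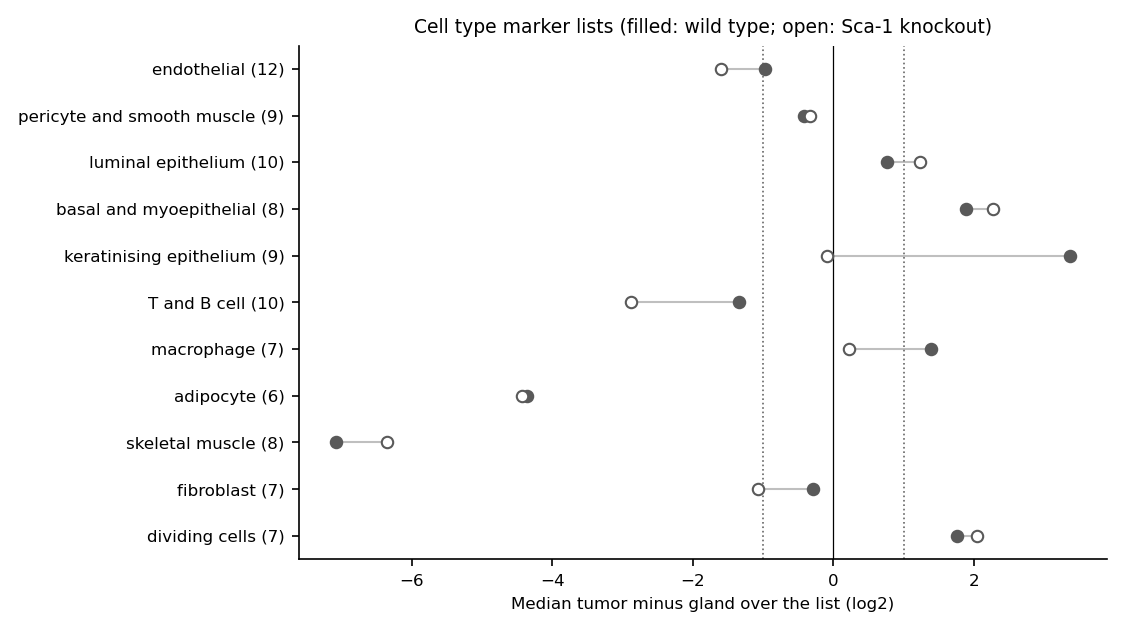
Median difference between tumor and gland (log2) over each list of cell type markers, with the number of genes above the floor in parentheses, wild type filled and Sca-1 knockout open. Dotted lines mark 2-fold. Skeletal muscle and adipocyte markers lie far to the left, and basal and dividing-cell markers to the right, in both genotypes.

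Promoters were searched for the core letters bound by RBPJ. RefSeq promoter windows (build GRCm38.p6, 250 bases before to 50 after a start site) were searched on both strands for TGGGAA, read as TTCCCA on the other strand, without regard to overlapping motifs. Of all 32851 windows, 25.6% held it at least once and 3.79% at least 2 times. Of the 10 genes 8 were matched to the table, all but Hes1 and Hey1, and of the 8 only Lfng held the letters. Among other HES and HEY genes and Nrarp, the letters were in the windows of Hey2, Hes5 and Hes7 and not in those of Nrarp and Hes6, nor in those of Dll4 and Dtx1. The windows of Lfng and Hey2, which hold the letters 2 times each, and of Nrarp, which holds none, are shown as examples with and without the letters, picked after the values were seen. Capitals mark the matches. Lfng is at chr5:140607091-140607390 on the plus strand, Hey2 at chr10:30842734-30843033 on the minus strand and Nrarp at chr2:25180508-25180807 on the plus strand, and each is written 5' to 3' along the gene.
Lfng: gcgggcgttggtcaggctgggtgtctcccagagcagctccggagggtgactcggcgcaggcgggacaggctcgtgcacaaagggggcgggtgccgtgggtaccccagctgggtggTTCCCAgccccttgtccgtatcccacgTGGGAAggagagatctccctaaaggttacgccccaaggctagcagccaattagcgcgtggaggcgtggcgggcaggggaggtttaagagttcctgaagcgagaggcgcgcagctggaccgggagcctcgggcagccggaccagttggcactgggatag
Hey2: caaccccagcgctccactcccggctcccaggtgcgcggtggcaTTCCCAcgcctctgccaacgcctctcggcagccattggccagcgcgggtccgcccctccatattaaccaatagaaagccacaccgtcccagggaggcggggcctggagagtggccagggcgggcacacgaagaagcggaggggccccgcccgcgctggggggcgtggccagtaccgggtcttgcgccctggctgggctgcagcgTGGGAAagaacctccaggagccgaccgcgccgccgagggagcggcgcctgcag
Nrarp: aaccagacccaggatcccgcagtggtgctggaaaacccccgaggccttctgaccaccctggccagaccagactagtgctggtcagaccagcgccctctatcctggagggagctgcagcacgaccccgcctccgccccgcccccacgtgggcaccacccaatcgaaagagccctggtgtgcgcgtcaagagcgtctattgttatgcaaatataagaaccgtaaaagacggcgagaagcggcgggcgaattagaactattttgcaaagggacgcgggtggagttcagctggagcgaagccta
Lfng, with matches that begin 135 and 108 bases before the start site, was lower in both tumors. Hey2, with matches 207 and 3 bases before it, was below the floor on every array, so no direction is read from it. Nrarp, with no match, was higher in both tumors. Whether the letters go with a direction was not tested. A match is a description of letters and not a binding site.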

How the data were processed

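RNA pooled from 5 mice per group was labelled with biotin and hybridised to 1 Affymetrix array per group, per the labels' protocols. The authors deposited linear intensity values for 22690 probe sets; which software computed them is not stated in the labels. On each array the mean without the lowest and highest 2% of probe sets came to 500, tested on the file. Values were used as deposited and set to log2(signal + 27.3). Symbols came from the platform annotation, updated by gene identifier (20364 probe sets matched). Of the probe sets 20393 had 1 symbol, 691 had several and were not used, and 1606 had no entry there and stay unnamed. The number of arrays limits the precision.

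The 10 genes, the pathway list, the 11 marker lists and the rule for named genes were chosen with earlier results of these data known. Pathway genes were named where at least 2-fold in a comparison, up to the 4 largest each way, plus Dll4, Nrarp and Heyl. Rbpj, Hey2, Dtx1, Spen, Furin and genes given within 2-fold as comparators were named after their values were seen. With 1 array per group, differences were counted at 2-fold (4-fold for the difference of differences), and the counting was tested on simulated data. The 9 alternatives changed the offset, the scaling (common median, quantile, cyclic loess in limma 3.58.1), the floor or the probe set. Python 3.11.15 and pandas 2.3.3 were used.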

Additional observations from a re-analysis of the deposited data

Results flagged for a closer look

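With 1 array per group, an opposite sign in 2 groups is all that can mark a difference between them, and none of the following was tested. The knockout minus wild-type difference (log2) had opposite signs in gland and tumor for 6 of the 10 genes, while 50.8% of all genes had the same sign in both. Given gland first and tumor second, it was -0.069 and 0.088 for Notch3, 0.10 and -0.11 for Jag1, -0.29 and 0.22 for Jag2, 0.012 and -0.12 for Dll1, 0.32 and -0.15 for Hes1, and 0.067 and -0.21 for Hey1. Tumor minus gland had opposite signs in wild type and knockout for 2 genes, at -0.30 and 0.21 for Jag2 and 0.020 and -0.11 for Dll1. Over all genes above the floor, the sign of tumor minus gland was the same in both genotypes for 7032 of 8283. The values given for the members are those of the brighter probe sets. Of the 6 genes, Hes1 alone kept the sign of its gland genotype difference under every alternative setting. The second probe sets gave genotype differences of 0.45 and 0.14 for Notch3, 0.16 and 0.05 for Jag1 and 0.83 and -0.08 for Jag2. For the second Jag2 probe set tumor minus gland was 1.64 and 0.74. The second Jag1 probe set was below the floor throughout. As a gauge of size, the first and second probe set of the same gene differed by a median of 0.24 for the genotype difference in gland and 0.17 in tumor, and of 0.49 and 0.45 for tumor minus gland in wild type and knockout, over 2766 genes with both above the floor.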

How the results depend on the processing

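No member passed 2-fold between genotypes under any of the 9 alternatives, and no called tissue difference changed sign. Of 348 member differences under alternatives 332 stayed on the same side of 2-fold and 16 did not. The number of members past 2-fold for tumor against gland was 5 in wild type and 2 with the mean of all probe sets, where 7 members stayed above the floor. In knockout it was 3, but 1 with the median of all values as offset, and 5 both at a common median and with cyclic loess. Pathway genes past 2-fold in knockout fell from 13 to 5 with that larger offset. The difference of differences reached 4-fold for 87 genes, 159 with an offset of 1, 30 with the median as offset and 36 with the floor on the mean. A larger offset shrinks every difference by construction, and a stricter floor tests fewer genes. The other causes were not tested. Notch3 in wild type ranged from -1.15 to -0.83 and Hes1 in knockout from 0.82 to 1.35, both across the threshold. Jag2 in wild type turned from -0.30 to as much as 0.67. In the gland genotype comparison a common median moved the median of all genes from 0.01 to -0.23 and the counts from 92 higher and 21 lower to 43 and 37. No paired analysis was possible because each group has 1 array and the result comes from no test.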

Other observations

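By the brighter probe sets, some pathway genes outside the 10 had larger differences between the tissue differences of the genotypes than any member. Dtx1, a Deltex ubiquitin ligase, had 151.5 and 245.5 in the wild-type and Sca-1 KO gland and 127.1 and 68.6 in the tumors, a difference of differences of -1.30 (log2), with the Sca-1 KO gland signal alone above the floor. Numbl had 247.8 and 426.2 in the glands and 97.8 and 63.1, both below the floor, in the tumors, at -1.19. Nrarp came to -0.97 and, on the positive side, the receptor-processing protease Furin to 0.75, with 640.1 and 572.2 in the glands and 312.6 and 486.1 in the tumors. Lymphocyte markers had a median of 1.17 in Sca-1 KO against wild-type gland, where Dtx1 differed by 0.61 and Numbl by 0.72, and their part in these values was not tested. Of these markers, Cd3e, Cd2, Cd8a and Blk passed the floor through the Sca-1 KO gland alone, so a higher value there was built into their passing.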
